A study of Homo sapiens with 15 samples.

Results

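The 7 genes TFCP2L1, GLUL, MAOA, STOM, ALOX5AP, CRISPLD2 and LCN2 are known from other cells and tissues as classical glucocorticoid targets. TFCP2L1 encodes a transcription factor, and the others have metabolic, membrane or secreted products. They were chosen by gene symbol and with earlier results of these data known, as were the gene lists used below. Counts of them set beside shares of all probe sets therefore describe these genes and are not a test. Each of the 7 genes has 1 probe set among the 14841 probe sets of the array that are paired here with 1 symbol. ZR-75-1, an established human breast cancer line that carries the estrogen receptor, was kept in ordinary medium with serum and exposed for 6 h to 10 nM MPA, 10 nM PROG, 10 nM DHT or 10 nM DEX, or to vehicle, 0.1% ethanol. Each of the 5 groups has 3 Affymetrix arrays of total RNA, 15 in all, and with so few arrays in each group the precision is limited. All groups are 1 cell line at 1 dose and 1 time. The labels do not tell whether the arrays of a group stand for different cultures, so each p-value reflects array-to-array spread alone, part of which could be technical. The vehicle arrays are also labelled untreated, and no label names what the compounds were dissolved in, so an effect of the solvent cannot be told apart from a change common to all compounds.

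By the usual reading of the abbreviations, PROG is progesterone, and MPA, medroxyprogesterone acetate, is a progestin made from its skeleton by adding a methyl group and an acetoxy group. DHT is the androgen dihydrotestosterone. DEX, dexamethasone, is a potent glucocorticoid with a fluorine atom and an extra methyl group. As background, glucocorticoid, progesterone and androgen receptors are related ligand-activated transcription factors that recognise similar DNA elements, so that a gene known for its glucocorticoid response can also answer to other steroids. MPA is known to bind all of these receptors, whereas dexamethasone acts mainly on the glucocorticoid receptor. The glucocorticoid receptor gene NR3C1 was not analysed here.

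The name "glucocorticoid-induced" held for part of the group in these cells. With DEX, 2 of the 7 genes rose, TFCP2L1 and GLUL, 0 fell, and 5 were not called, beside 1.11% of all 14841 named probe sets called in either direction. Leaving out 1 DEX or vehicle array, the DEX calls over all named probe sets numbered 78 to 123, against 164 with all arrays. TFCP2L1 and GLUL were still called in each of these fits. Fitted on the 6 DEX and vehicle arrays alone, neither was called (adjusted p = 0.0705 for TFCP2L1 and 0.0534 for GLUL). With MPA and with PROG 4 genes rose, TFCP2L1, GLUL, STOM and ALOX5AP, and 1, CRISPLD2, fell, beside 5.93% of all named probe sets called with MPA and 2.82% with PROG. With DHT 1 gene rose, GLUL, beside 0.889%. MAOA and LCN2 were not called against vehicle with any compound. A moderated F test over the 5 groups called 5 of the 7 genes, all but MAOA and LCN2, beside 5.13%. Here a gene is called when its adjusted p is under 0.05 in limma's fit over all 14841 probe sets, and levels and differences are on the deposited log2 scale, where a difference of 1 is a doubling. The shares of all named probe sets called higher were 4.11% with MPA, 2.43% with PROG, 0.775% with DHT and 0.957% with DEX, and the shares called lower were 1.82%, 0.391%, 0.115% and 0.148% in that order of compounds. The median difference from vehicle over the 7 genes was 0.51 with MPA, 0.45 with PROG, -0.10 with DHT and 0.16 with DEX, beside medians over all named probe sets between -0.0033 and 0.010. With 3 arrays in each group, arrays that do not overlap are common. The treated and vehicle arrays did not overlap for 5 of the 7 genes with MPA, 5 with PROG, 3 with DHT and 3 with DEX. The shares of all named probe sets were 19.1%, 15.5%, 12.7% and 13.6% in that order. Between compounds, 4 to 7 of the 7 genes did not overlap, beside 11.7% to 17.6%.

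**Figure D1:**
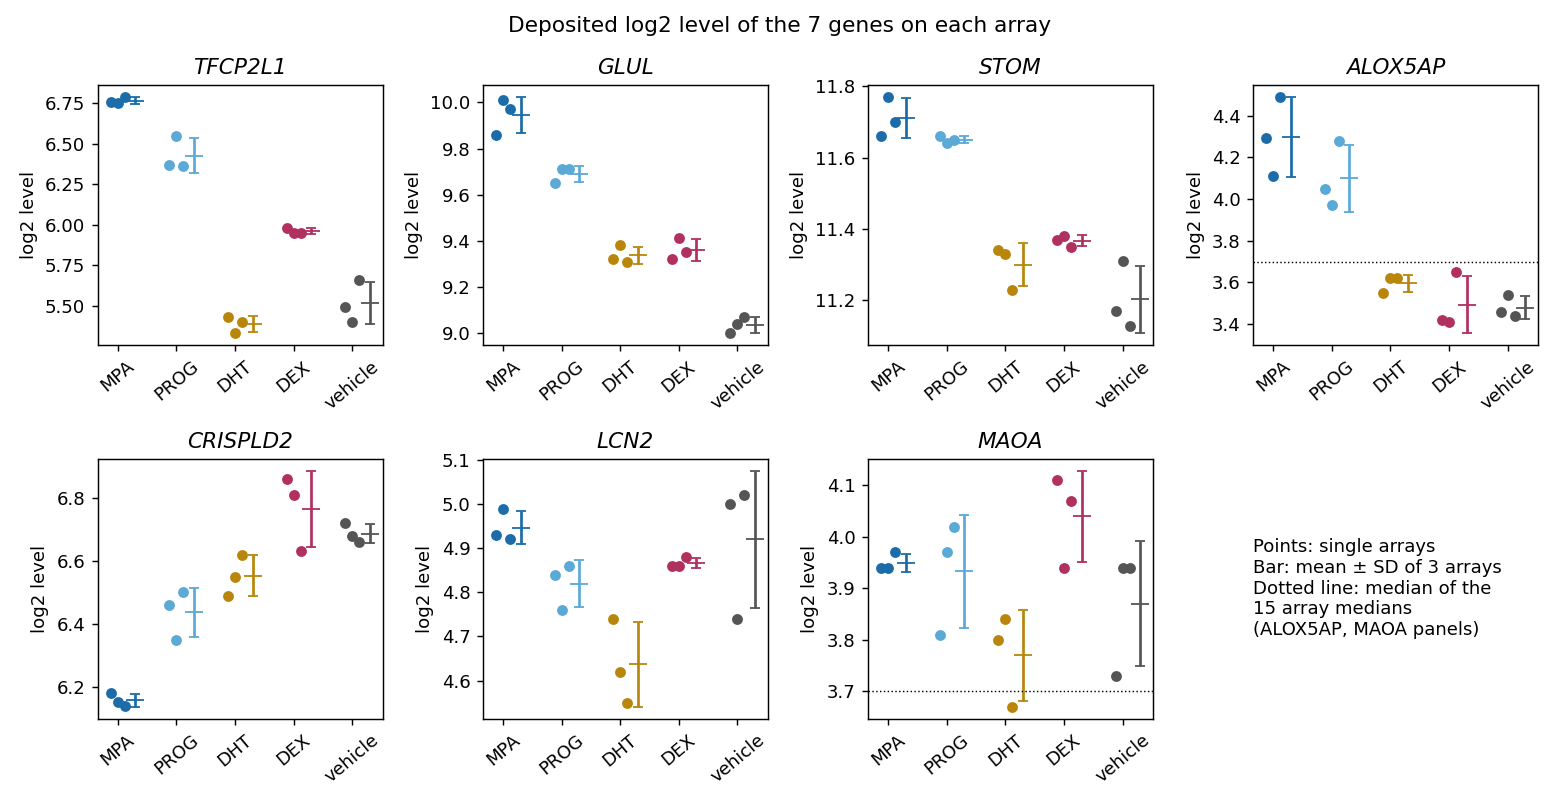
Deposited log2 level (vertical axis, own range for each gene) of the 7 genes in the MPA, PROG, DHT, DEX and vehicle groups, with 1 point per array and a bar for the mean ± SD of 3 arrays. The MPA and PROG arrays lie above the vehicle arrays for TFCP2L1, GLUL, STOM and ALOX5AP and below them for CRISPLD2. Of all named probe sets, 19.1% with MPA and 15.5% with PROG do not overlap vehicle. The dotted line at 3.70 in 2 panels is the median of the array medians.

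Promoter windows of the 5 genes that were called against vehicle are shown so that the genes that rose together can be set beside the 1 that fell. Each window runs from 250 bases before to 50 bases after an annotated transcription start, from RefSeq on GRCh38.p14, 5′ to 3′ on the strand of the gene. Capitals mark GC boxes, GGGCGG or its reverse complement CCGCCC, a common element of promoters with many CpG dinucleotides. The windows are chr2:121285153-121285452 on the minus strand for TFCP2L1, chr1:182391741-182392040 on the minus strand for GLUL, chr9:121370201-121370500 on the minus strand for STOM, chr13:30713235-30713534 on the plus strand for ALOX5AP and chr16:84819735-84820034 on the plus strand for CRISPLD2.
TFCP2L1: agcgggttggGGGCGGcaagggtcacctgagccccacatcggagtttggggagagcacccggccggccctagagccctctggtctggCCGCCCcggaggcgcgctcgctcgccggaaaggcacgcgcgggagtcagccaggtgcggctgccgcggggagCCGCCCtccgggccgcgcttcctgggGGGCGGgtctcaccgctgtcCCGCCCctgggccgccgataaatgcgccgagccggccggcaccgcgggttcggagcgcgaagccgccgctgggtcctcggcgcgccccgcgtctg
GLUL: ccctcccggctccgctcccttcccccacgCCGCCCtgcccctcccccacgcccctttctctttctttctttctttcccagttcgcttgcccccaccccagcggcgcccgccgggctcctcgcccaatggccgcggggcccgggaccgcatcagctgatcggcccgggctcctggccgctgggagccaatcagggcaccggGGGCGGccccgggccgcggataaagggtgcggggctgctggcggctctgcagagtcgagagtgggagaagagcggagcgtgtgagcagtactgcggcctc
STOM: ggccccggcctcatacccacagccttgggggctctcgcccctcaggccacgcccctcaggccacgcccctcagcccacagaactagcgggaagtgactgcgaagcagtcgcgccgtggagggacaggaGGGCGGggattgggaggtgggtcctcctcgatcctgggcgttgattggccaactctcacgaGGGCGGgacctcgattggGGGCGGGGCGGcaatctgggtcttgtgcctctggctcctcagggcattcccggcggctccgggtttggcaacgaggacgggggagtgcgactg
ALOX5AP: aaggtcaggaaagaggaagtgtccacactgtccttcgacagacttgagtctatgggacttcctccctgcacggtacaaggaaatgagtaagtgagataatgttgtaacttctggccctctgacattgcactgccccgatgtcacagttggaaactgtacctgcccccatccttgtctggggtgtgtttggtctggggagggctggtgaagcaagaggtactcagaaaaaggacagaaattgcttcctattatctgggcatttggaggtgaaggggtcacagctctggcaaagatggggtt
CRISPLD2: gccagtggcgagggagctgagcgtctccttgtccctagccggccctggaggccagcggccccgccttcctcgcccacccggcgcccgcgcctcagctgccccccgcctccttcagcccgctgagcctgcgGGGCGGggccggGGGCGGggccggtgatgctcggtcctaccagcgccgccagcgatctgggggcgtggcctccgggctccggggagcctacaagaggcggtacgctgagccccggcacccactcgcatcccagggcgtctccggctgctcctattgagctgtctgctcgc

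All 7 genes matched the RefSeq promoter table, GLUL with 2 windows, of which the upstream one is printed. The receptor half-site AGAACA, searched on both strands, had no match in any of the 8 windows, and 14.8% of all 35116 promoter windows of this length hold it. The full palindromic site, AGAACA and TGTTCT with any 3 bases between, was matched in 1 of the 35116 windows, which is not one of these. A window without a match is thus the common case, and bases outside the windows and looser forms of the site were not searched. GC boxes numbered 5 in the TFCP2L1 window, 2 in that of GLUL, 4 in that of STOM, 2 in that of CRISPLD2 and 0 in that of ALOX5AP, against 45.0% of all windows with at least 1. The GC content was 77.3% for TFCP2L1, 72.7% for GLUL, 69.0% for STOM and 75.3% for CRISPLD2, whereas ALOX5AP had 50.3%. The number of CpG dinucleotides was 43 for TFCP2L1 and 3 for ALOX5AP, with a median of 14 over all windows. The 3 other windows held no half-site either, and their GC content was 63.0% for MAOA, 57.3% for LCN2 and 69.7% for the second GLUL window.

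TFCP2L1, a CP2-family transcription factor known from pluripotent cells and the kidney collecting duct, had the widest range of group means of the 7 genes, 1.38. Its level was 6.76, 6.75 and 6.79 with MPA, 6.37, 6.55 and 6.36 with PROG, 5.43, 5.33 and 5.40 with DHT, 5.98, 5.95 and 5.95 with DEX, and 5.49, 5.40 and 5.66 with vehicle. The MPA, PROG and DEX arrays each formed a level of their own, none overlapping another group, while the DHT and vehicle arrays overlapped. Against vehicle TFCP2L1 rose 2.38-fold with MPA (log2 difference 1.25 ± 0.064, SE, adjusted p = 1.43e-08), 1.88-fold with PROG (0.91 ± 0.064, adjusted p = 7.51e-07) and 1.36-fold with DEX (0.44 ± 0.064, adjusted p = 0.00239). Among all named probe sets it was the 33rd highest difference with MPA, the 37th with PROG and the 55th with DEX. With DHT the difference was -0.13 ± 0.064, adjusted p = 0.546, with a 95% interval of -0.27 to 0.0082.

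TFCP2L1 also differed in each of the 6 pairs of compounds. With DEX it was lower than with MPA by -0.81 ± 0.064 (adjusted p = 2.66e-06) and lower than with PROG by -0.47 ± 0.064 (adjusted p = 0.00119). It was higher with DEX than with DHT by 0.57 ± 0.064 (adjusted p = 3.97e-04), the 8th highest DEX minus DHT difference of all named probe sets. MPA minus DHT was 1.38 ± 0.064 (adjusted p = 2.67e-08) and PROG minus DHT 1.04 ± 0.064 (adjusted p = 5.75e-07), the 7th and 9th highest of their comparisons. MPA exceeded PROG, from which it differs by the methyl and acetoxy groups, by 0.34 ± 0.064 (adjusted p = 0.0439). That last call ended when any 1 of MPA 1, MPA 2, MPA 3, PROG 1 and PROG 3 was left out (adjusted p up to 0.211). Fitted on the 6 DEX and vehicle arrays alone, the DEX difference from vehicle was no longer called (adjusted p = 0.0705).

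Among the CP2 and grainyhead transcription factors related to TFCP2L1, 1 of the 5 others measured was called against vehicle. Such a count says little about the family, since 5.93% of all named probe sets were called with MPA, 2.82% with PROG and 0.889% with DHT. Of the 5 others measured, GRHL2, a grainyhead factor of epithelial cells, rose with MPA (0.54 ± 0.042, adjusted p = 9.15e-07), PROG (0.41 ± 0.042, adjusted p = 2.88e-05) and DHT (0.29 ± 0.042, adjusted p = 0.00353), and the other 4 were not called with any compound. With DEX GRHL2 was not called (0.09 ± 0.042, adjusted p = 0.508), and DEX was lower than MPA and than PROG for it. The closest relative of TFCP2L1, TFCP2, averaged 8.15 with MPA, 8.12 with PROG, 8.19 with DHT, 8.27 with DEX and 8.29 with vehicle and was not called.

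GLUL, glutamine synthetase, which makes glutamine from glutamate and ammonia, was the 1 gene of the 7 that rose with all 4 compounds. Its level was 9.86, 10.01 and 9.97 with MPA, 9.65, 9.71 and 9.71 with PROG, 9.32, 9.38 and 9.31 with DHT, 9.32, 9.41 and 9.35 with DEX, and 9.0, 9.04 and 9.07 with vehicle. All vehicle arrays lay below all treated arrays, and the DHT and DEX arrays overlapped. The rise was 1.88-fold with MPA (0.91 ± 0.047, adjusted p = 1.43e-08), 1.57-fold with PROG (0.65 ± 0.047, adjusted p = 7.99e-07), 1.23-fold with DHT (0.30 ± 0.047, adjusted p = 0.00546) and 1.25-fold with DEX (0.32 ± 0.047, adjusted p = 0.00235). The DEX response of GLUL was 35.5% of its MPA response on the log2 scale, and the DHT response 33.0%. Fitted on the 6 arrays of both groups alone, neither the DEX (adjusted p = 0.0534) nor the DHT call (adjusted p = 0.0599) remained.

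DEX and DHT were not distinguished for GLUL, with a difference of 0.02 ± 0.047 (adjusted p = 0.923) and a 95% interval of -0.08 to 0.12. With DEX GLUL was lower than with MPA (-0.59 ± 0.047, adjusted p = 2.66e-06) and than with PROG (-0.33 ± 0.047, adjusted p = 0.00146). It was higher with MPA than with DHT (0.61 ± 0.047, adjusted p = 1.59e-06) and with PROG than with DHT (0.35 ± 0.047, adjusted p = 6.34e-04). MPA exceeded PROG by 0.26 ± 0.047 (adjusted p = 0.0352), a call that ended without any 1 of MPA 2, MPA 3, PROG 1, PROG 2 and PROG 3 (adjusted p up to 0.170). Of the 9 other glutamine and glutamate genes measured, 1 was called against vehicle, beside 5.93% of all named probe sets called with MPA. PPAT, the enzyme that uses glutamine in the committed step of purine synthesis, fell with MPA (-0.36 ± 0.070, adjusted p = 0.00503) and was higher with DEX than with MPA, and 8 genes were not called. The median difference of these 9 genes with MPA was -0.04, beside -0.0033 over all named probe sets.

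MAOA, the mitochondrial monoamine oxidase that breaks down serotonin and noradrenaline, lay close to the array medians of 3.69 to 3.73 in every group. Its level was 3.94, 3.94 and 3.97 with MPA, 3.81, 3.97 and 4.02 with PROG, 3.80, 3.84 and 3.67 with DHT, 4.11, 3.94 and 4.07 with DEX, and 3.73, 3.94 and 3.94 with vehicle. The treated and vehicle arrays overlapped or touched with each compound. DEX had the highest mean, 0.17 ± 0.072 above vehicle (adjusted p = 0.421, 95% interval 0.02 to 0.32), and DHT the lowest, -0.10 ± 0.072 (adjusted p = 0.713). No neighbouring pair in the order DEX, MPA, PROG, vehicle, DHT differed, and DEX minus DHT, the widest gap, was 0.27 ± 0.072 (adjusted p = 0.147). At such low levels the RMA scale tends to be compressed, so a small difference here does not bound the change in the cells.

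The related enzyme MAOB, which also breaks down amines in mitochondria, was called where MAOA was not. MAOB averaged 7.69 with MPA, 7.61 with PROG, 7.37 with DHT, 7.81 with DEX and 7.35 with vehicle. It rose with DEX (0.46 ± 0.076, adjusted p = 0.00776) and with MPA (0.34 ± 0.076, adjusted p = 0.0149), was not called with PROG (0.26 ± 0.076, adjusted p = 0.104) or DHT (0.02 ± 0.076, adjusted p = 0.966), and was higher with DEX than with DHT. PNMT, the enzyme that makes adrenaline from noradrenaline, was the other of the 9 further monoamine genes measured that was called, higher with MPA (0.83 ± 0.11, adjusted p = 2.61e-04) and PROG (0.52 ± 0.11, adjusted p = 0.0228). Its mean with vehicle, 3.39, lies under the array medians, as does its mean of 3.25 with DEX. Of the 9 further monoamine genes, 4 had no group mean above the median of the array medians. Against vehicle, 5.93% of all named probe sets were called with MPA, 2.82% with PROG and 1.11% with DEX.

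STOM, stomatin, an integral membrane protein first known from red blood cells that modulates ion channels, rose with both progestins. Its level was 11.66, 11.77 and 11.70 with MPA, 11.66, 11.64 and 11.65 with PROG, 11.34, 11.33 and 11.23 with DHT, 11.37, 11.38 and 11.35 with DEX, and 11.17, 11.31 and 11.13 with vehicle. The MPA and PROG arrays lay above all others, and the DEX arrays lay above the vehicle arrays by 0.04 at the nearest. Of all named probe sets, 13.6% had DEX and vehicle arrays that did not overlap. STOM rose 1.42-fold with MPA (0.51 ± 0.051, adjusted p = 1.28e-05) and 1.36-fold with PROG (0.45 ± 0.051, adjusted p = 7.82e-05). The differences with DEX (0.16 ± 0.051, adjusted p = 0.211) and DHT (0.10 ± 0.051, adjusted p = 0.581) were not called. DEX was lower than MPA by -0.34 ± 0.051 (adjusted p = 9.09e-04) and than PROG by -0.28 ± 0.051 (adjusted p = 0.00904).

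For STOM, MPA and PROG were not distinguished, with a difference of 0.06 ± 0.051 (adjusted p = 0.814, 95% interval -0.05 to 0.17), nor were DEX and DHT (0.07 ± 0.051, adjusted p = 0.740, 95% interval -0.04 to 0.18). Both progestins were higher than DHT, MPA by 0.41 ± 0.051 (adjusted p = 1.91e-04) and PROG by 0.35 ± 0.051 (adjusted p = 0.00142). None of the 9 other measured members of the stomatin, prohibitin and flotillin family was called in any of the 10 comparisons. Over all named probe sets the shares called were only 0.29% to 5.93%. Of these 9, 1 had no group mean above the median of the array medians.

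ALOX5AP, the membrane protein that presents arachidonate to the lipoxygenase ALOX5 for leukotriene synthesis, rose with MPA and PROG from a dim level. It was 4.29, 4.11 and 4.49 with MPA, 4.05, 3.97 and 4.28 with PROG, 3.55, 3.62 and 3.62 with DHT, 3.42, 3.41 and 3.65 with DEX, and 3.46, 3.54 and 3.44 with vehicle. Every MPA and PROG array lay above the median of the array medians, 3.70, and every DHT, DEX and vehicle array below it. The vehicle, DHT and DEX levels lie where a lower level could not be told apart on this scale, so no fold is given, and differences of MPA and PROG from them are those of the deposited values and may understate the change. On that scale the difference from vehicle was 0.82 ± 0.096 with MPA (adjusted p = 6.30e-05) and 0.62 ± 0.096 with PROG (adjusted p = 0.00152). The DEX difference was 0.01 ± 0.096 (adjusted p = 0.982, 95% interval -0.19 to 0.22) and the DHT difference 0.12 ± 0.096 (adjusted p = 0.756).

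With DEX ALOX5AP was lower than with MPA by -0.80 ± 0.096 (adjusted p = 1.42e-04) and than with PROG by -0.61 ± 0.096 (adjusted p = 0.00359). It was higher with MPA than with DHT by 0.70 ± 0.096 (adjusted p = 4.56e-04) and with PROG than with DHT by 0.50 ± 0.096 (adjusted p = 0.0125), the second of which ended without PROG 3 or DHT 1 (adjusted p = 0.0637 and 0.0643). MPA minus PROG was not called (0.20 ± 0.096, adjusted p = 0.606, 95% interval -0.0097 to 0.40). The partner enzyme ALOX5 averaged 6.73 with MPA, 6.69 with PROG, 6.56 with DHT, 6.62 with DEX and 6.57 with vehicle and was not called (MPA difference 0.16 ± 0.052, adjusted p = 0.0966). Of the 18 other arachidonate, leukotriene and prostaglandin genes measured, HPGD, the enzyme that inactivates prostaglandins, rose with MPA (0.63 ± 0.066, adjusted p = 2.08e-05) and PROG (0.30 ± 0.066, adjusted p = 0.0250), and 17 were not called with any compound against vehicle. HPGD was also lower with DEX than with MPA, PROG or DHT, and with DEX its mean was 3.80, near the array medians. Of the 18 genes, 6 had no group mean above the median of the array medians. Against vehicle, 5.93% of all named probe sets were called with MPA and 2.82% with PROG.

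CRISPLD2, a secreted cysteine-rich protein known as a glucocorticoid-responsive gene of airway smooth muscle, went the other way. Its level was 6.18, 6.15 and 6.14 with MPA, 6.46, 6.35 and 6.50 with PROG, 6.49, 6.55 and 6.62 with DHT, 6.86, 6.81 and 6.63 with DEX, and 6.72, 6.68 and 6.66 with vehicle. The MPA arrays were below all others, the PROG arrays below all vehicle and DEX arrays, and the DEX and vehicle arrays overlapped. CRISPLD2 fell to 0.693 of the vehicle level with MPA (-0.53 ± 0.060, adjusted p = 4.17e-05), the 29th lowest difference of all named probe sets. With PROG it fell to 0.841 of the vehicle level (-0.25 ± 0.060, adjusted p = 0.0375). The PROG call ended without any 1 of vehicle 1, vehicle 2, vehicle 3, PROG 1 and PROG 2 (adjusted p 0.0789 to 0.181).

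The difference of CRISPLD2 from vehicle was 0.08 ± 0.060 with DEX (adjusted p = 0.709, 95% interval -0.05 to 0.21) and -0.13 ± 0.060 with DHT (adjusted p = 0.487). Between compounds it was higher with DEX than with MPA by 0.61 ± 0.060 (adjusted p = 1.95e-05), the 8th highest DEX minus MPA difference of all named probe sets. It was higher with DEX than with PROG by 0.33 ± 0.060 (adjusted p = 0.00964), which ended without any 1 of PROG 2, DEX 1 and DEX 2 (adjusted p up to 0.0604). It was lower with MPA than with DHT by -0.40 ± 0.060 (adjusted p = 0.00102). MPA minus PROG (-0.28 ± 0.060, adjusted p = 0.0872) and DEX minus DHT (0.21 ± 0.060, adjusted p = 0.179) were not called, the second of which became a call without DEX 3 (adjusted p = 0.0475). None of the 10 other measured members of its CAP superfamily was called in any of the 10 comparisons, beside 0.29% to 5.93% of all named probe sets. Of these 10, 6 had no group mean above the median of the array medians, where a change could hardly be seen. The nearest relative CRISPLD1 averaged 5.35 with MPA, 5.35 with PROG, 5.66 with DHT, 5.39 with DEX and 5.36 with vehicle.

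LCN2, lipocalin 2, a secreted protein that binds bacterial siderophores and so withholds iron, was lowest with DHT. Its level was 4.93, 4.99 and 4.92 with MPA, 4.84, 4.76 and 4.86 with PROG, 4.74, 4.62 and 4.55 with DHT, 4.86, 4.86 and 4.88 with DEX, and 5.0, 4.74 and 5.02 with vehicle. The DHT arrays were below all MPA, PROG and DEX arrays, but the highest of them equalled vehicle 2, the lowest vehicle array. The difference from vehicle with DHT was -0.28 ± 0.069 (adjusted p = 0.0767), and -0.37 without vehicle 2, which then was a call (adjusted p = 0.00762). DEX (-0.05 ± 0.069, adjusted p = 0.850), MPA (0.03 ± 0.069, adjusted p = 0.887) and PROG (-0.10 ± 0.069, adjusted p = 0.660) were not called. MPA minus DHT was the 1 call for LCN2 between compounds (0.31 ± 0.069, adjusted p = 0.0197), and it ended without any 1 of MPA 1, MPA 2, DHT 2 and DHT 3 (adjusted p up to 0.0841). DEX minus DHT was 0.23 ± 0.069 (adjusted p = 0.220).

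Of the 18 other lipocalins and iron-uptake genes measured, 13 had no group mean above the median of the array medians. APOD, a lipocalin of breast and other tissues known as a steroid-responsive gene, rose with MPA (0.20 ± 0.048, adjusted p = 0.0193), and OBP2A, an odorant-binding lipocalin, was lower with DHT (-0.47 ± 0.095, adjusted p = 0.0352). The remaining 16 were not called with any compound against vehicle. Over all named probe sets 5.93% were called with MPA and 0.889% with DHT.

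**Figure D2:**
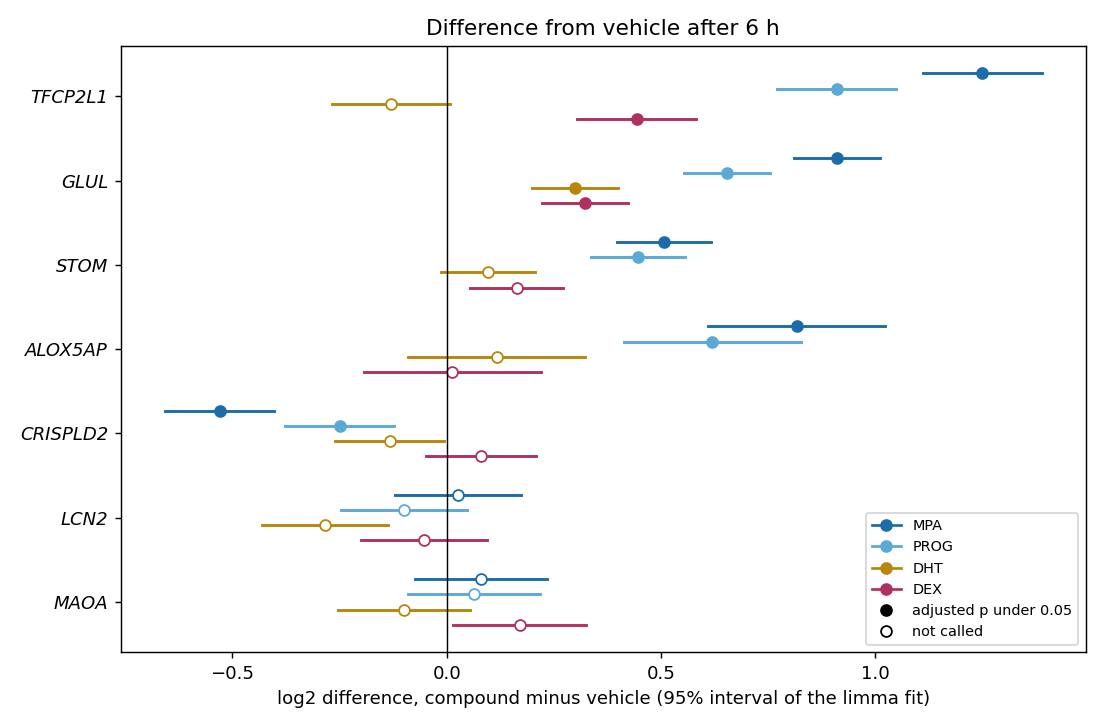
Log2 difference from vehicle (horizontal axis) of the 7 genes with MPA, PROG, DHT and DEX, as the estimate and 95% interval of limma's fit, filled where the adjusted p is under 0.05. TFCP2L1 and GLUL are filled on the right for DEX, and STOM and ALOX5AP for MPA and PROG only, while CRISPLD2 is filled on the left for MPA and PROG.

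The 6 pairs of compounds were compared at the same dose and time. DEX was lower than MPA for TFCP2L1, GLUL, STOM and ALOX5AP and higher for CRISPLD2, 4 lower and 1 higher of 7, beside 2.49% and 1.57% of all named probe sets (4.06% in either direction). The same 4 genes were lower and CRISPLD2 higher with DEX than with PROG, beside 1.03% and 0.391% (1.42% in either direction). These comparisons share the DEX arrays. Between DEX and DHT only TFCP2L1 was called, higher with DEX, beside 0.398% of all named probe sets called higher and 0.256% called lower (0.654% in all). MPA exceeded PROG for TFCP2L1 and GLUL, beside 0.236%, and was lower for none, beside 0.0539% (0.29% in all). Of these 2 calls, 0 to 1 remained when any 1 MPA or PROG array was left out, and 0 on the 6 arrays alone. MPA was higher than DHT for 5 genes, TFCP2L1, GLUL, STOM, ALOX5AP and LCN2, beside 2.53%, and lower for CRISPLD2, beside 0.977% (3.51% in all). PROG was higher than DHT for TFCP2L1, GLUL, STOM and ALOX5AP, beside 1.36%, and lower for none, beside 0.35% (1.71% in all). With adjustment over all 10 comparisons together, the MPA minus PROG difference of CRISPLD2 (adjusted p = 0.0230) and the DHT difference of LCN2 from vehicle (adjusted p = 0.0488) were called as well.

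**Figure D3:**
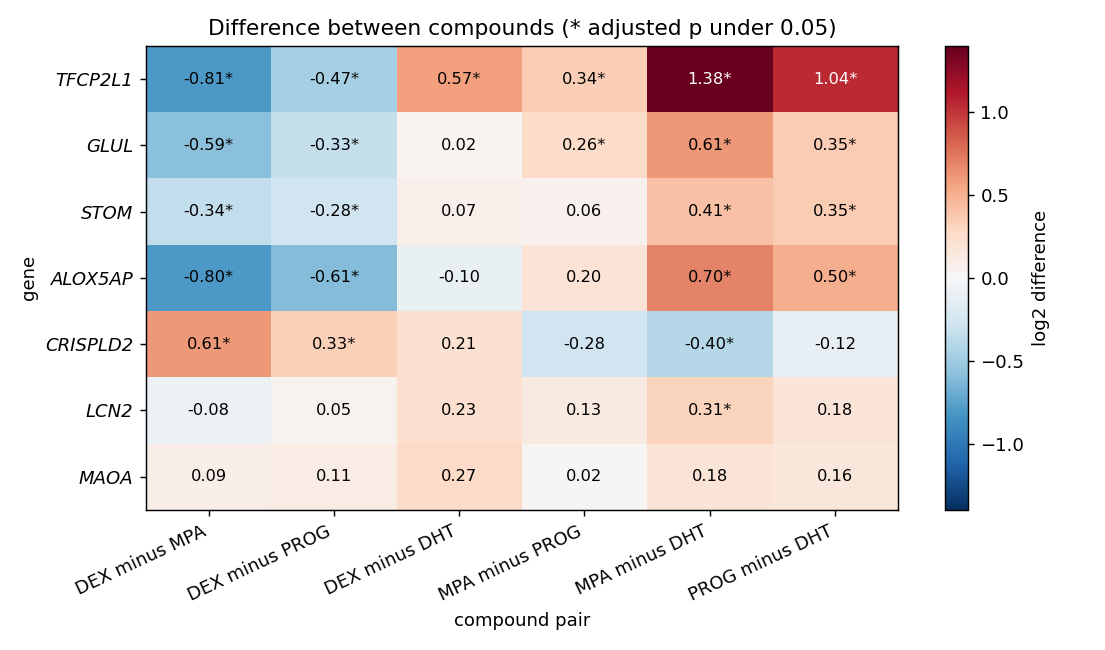
Log2 difference between compounds (colour and printed value) for each of the 7 genes (rows) and 6 compound pairs (columns), with an asterisk where limma's adjusted p is under 0.05. The DEX minus MPA and DEX minus PROG columns are negative for TFCP2L1, GLUL, STOM and ALOX5AP and positive for CRISPLD2.

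The levels of each gene ran in different orders. For TFCP2L1 the order was MPA, PROG, DEX, vehicle, DHT, and only vehicle and DHT were not distinguished as neighbours (adjusted p = 0.546). For GLUL it was MPA, PROG, DEX, DHT, vehicle, with DEX and DHT not distinguished. For STOM the same order held, and of its neighbours only PROG and DEX differed. For ALOX5AP the order was MPA, PROG, DHT, DEX, vehicle, and only PROG and DHT differed as neighbours. CRISPLD2 ran DEX, vehicle, DHT, PROG, MPA and LCN2 ran MPA, vehicle, DEX, PROG, DHT, with no neighbours called in either. For TFCP2L1 and GLUL the step between MPA and PROG rested on calls that ended without single arrays, as given above.

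A list of other classical glucocorticoid-induced genes, 19 of 30 of which were measured, gave a setting for the 7. It too was chosen with earlier results of these data known. With DEX 9 of the 19 rose, with MPA 13, with PROG 11 and with DHT 4, and none fell with any of these compounds. The shares of all named probe sets called higher were 0.957% with DEX, 4.11% with MPA, 2.43% with PROG and 0.775% with DHT. The median difference over the 19 was 0.20 with DEX, 0.49 with MPA, 0.38 with PROG and 0.15 with DHT, and 4 of the 19 had no group mean above the median of the array medians. SGK1, a kinase that regulates sodium channels, is 1 of these 4 and is among the genes counted with MPA and PROG. PER1, a circadian clock repressor, rose by 2.14 ± 0.10 with DEX (adjusted p = 7.54e-08), beside 1.88 ± 0.10 with MPA, 1.5 ± 0.10 with PROG and 1.06 ± 0.10 with DHT, and DEX and MPA were not distinguished (0.26 ± 0.10, adjusted p = 0.246). BCL6, a transcriptional repressor, rose by 1.01 ± 0.053 with DEX and 1.08 ± 0.053 with MPA, and these 2 groups were not distinguished (-0.07 ± 0.053, adjusted p = 0.607). ERRFI1, a feedback inhibitor of epidermal growth factor receptor signalling, rose by 0.26 ± 0.053 with DEX, beside 0.84 ± 0.053 with MPA and 0.70 ± 0.053 with PROG. MT2A, a metal-binding metallothionein, rose by 0.30 ± 0.046 with DEX, beside 0.70 ± 0.046 with MPA and 0.55 ± 0.046 with PROG.

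Between compounds, 9 of the 19 were called lower with DEX than with MPA and 1, ANGPTL4, was called higher. Of all named probe sets, 2.49% were called lower and 1.57% higher in that comparison. With DEX against PROG, 6 of the 19 were called lower and 4 higher, beside 1.03% and 0.391% of all named probe sets. ANGPTL4, a secreted inhibitor of lipoprotein lipase, was higher with DEX than with MPA by 0.44 ± 0.082 (adjusted p = 0.00516). The DEX minus MPA difference of CRISPLD2, 0.61, lay above all 19. Against vehicle CRISPLD2 fell with MPA (-0.53), and its DEX difference of 0.08 was not called (adjusted p = 0.709). Against PROG the DEX difference of CRISPLD2, 0.33, was exceeded by ANGPTL4 (0.76) and PER1 (0.64).

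**Figure D4:**
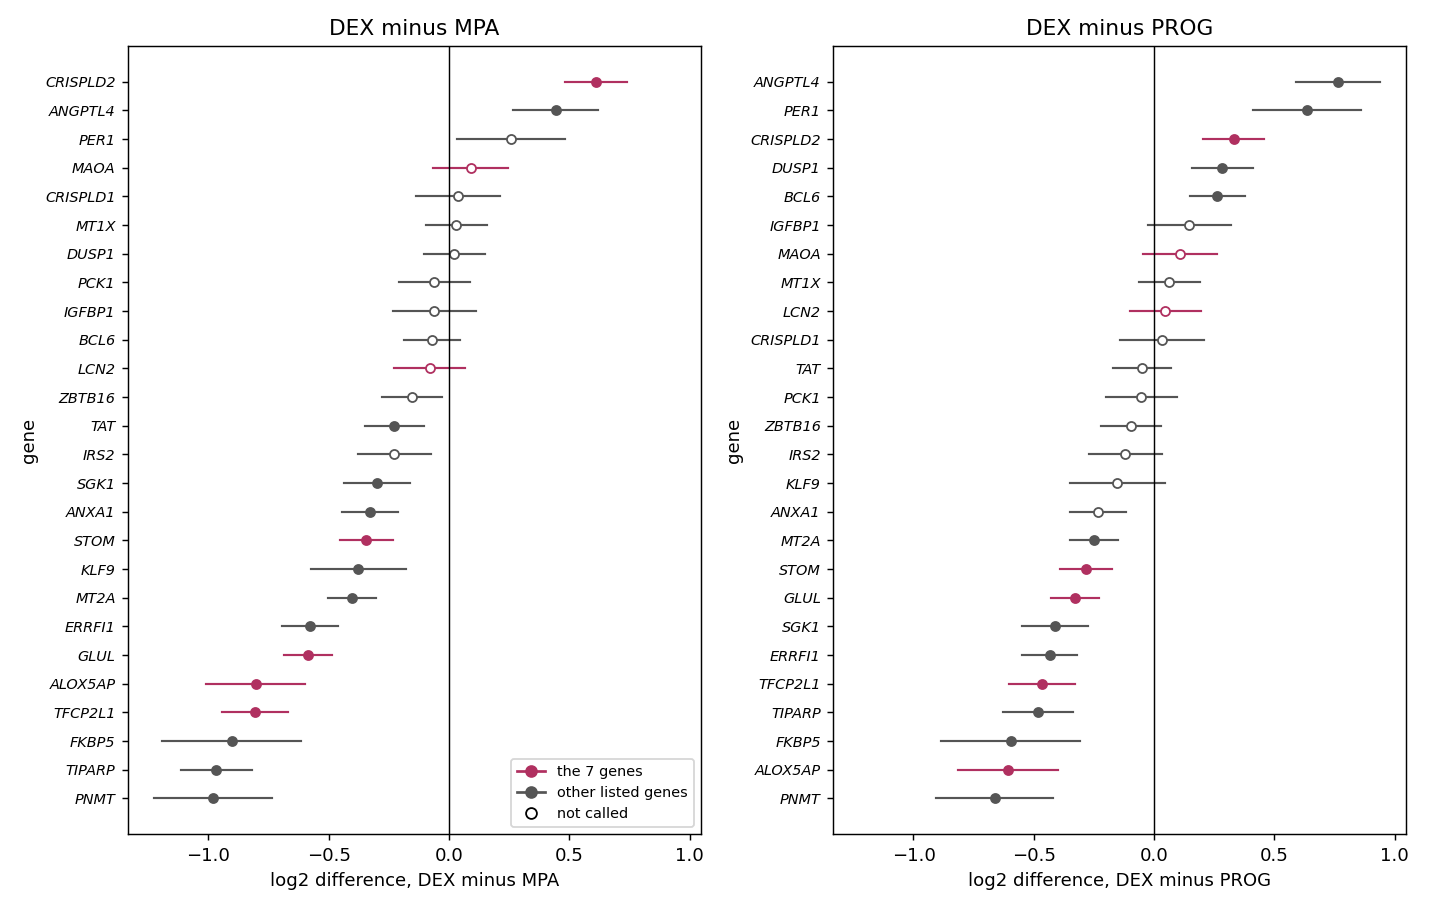
Log2 difference DEX minus MPA (left) and DEX minus PROG (right), horizontal axes, for the 7 genes and 19 other classical glucocorticoid-induced genes (rows, sorted by difference), with 95% intervals of limma's fit and filled points where the adjusted p is under 0.05. CRISPLD2 is the highest of the left panel, and TFCP2L1, GLUL, STOM and ALOX5AP lie left of 0 in both panels. Against vehicle CRISPLD2 was lower with MPA and not called with DEX.

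For the 5 genes with a called F test over the 5 groups, the genes with the most similar profile were sought by Pearson correlation over the 15 arrays, among up to 738 probe sets with a called F test and a group mean above the array medians. All share the same arrays and groups, so r describes likeness only. Differences printed for these genes follow from that choice and are no separate result. TFCP2L1 was most like MPRIP (r = 0.982), a myosin phosphatase-interacting protein, the zinc finger factor gene KLF6 (r = 0.982) and the kinase gene STK39 (r = 0.977). All 3 of these were raised by 0.42 to 0.54 with MPA, and their DHT differences were -0.02, 0 and 0.0067. GLUL was most like TMEM63C (r = 0.981), MYO1E (r = 0.978), an unconventional myosin, and the transcription factor gene JUN (r = 0.974), and STOM was most like ERRFI1 (r = 0.968), F2R (r = 0.967), the thrombin receptor, and KL (r = 0.966), which encodes klotho. ALOX5AP was most like PDLIM1 (r = 0.962), KIAA0513 (r = 0.959) and PXYLP1 (r = 0.951). CRISPLD2 was most like TRERF1 (r = 0.918), a transcriptional regulator, ARRDC4 (r = 0.916), an arrestin-domain protein, and CEACAM5 (r = 0.914), carcinoembryonic antigen, whose MPA differences were -0.64, -0.47 and -0.42.

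Markers of the labelled cell type were present. All 8 measured luminal epithelial markers, of 11 listed, had means above the median of the array medians, and their summed linear level ranged from 11379 to 11654 with MPA, 11344 to 11641 with PROG, 11578 to 11765 with DHT, 11756 to 11983 with DEX and 11235 to 11552 with vehicle. Of these markers KRT19 rose with all 4 compounds, and ESR1, the estrogen receptor gene, was lower with MPA, PROG and DHT, as was FOXA1 with MPA. The basal markers KRT5, KRT14 and MYLK, the fibroblast marker DCN and the blood and endothelial markers CD14 and VWF had means below the array medians. In each of these lists 1 measured marker had a mean above the median of the array medians, so none of the lists was dim throughout. In the basal list it was OXTR, which was lower with MPA (-0.34 ± 0.071, adjusted p = 0.00797). The summed linear level of the 4 measured basal markers of 8 listed ranged from 59.6 to 65.3 over the treated arrays and from 65.1 to 71.6 over the vehicle arrays, of the 2 fibroblast markers of 8 from 22.4 to 27.7 and 25.2 to 26.0, and of the 3 blood and endothelial markers of 10 from 212 to 264 and 208 to 218. The part of these shifts in the 7 genes' results was not tested.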

How the data were processed

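Total RNA of ZR-75-1 cells was amplified, labelled and hybridised to Affymetrix arrays, per the labels' protocols. The authors deposited log2 values for 34878 probe sets, 1 column per array, and the submitters' processing notes name Partek and RMA. Their versions, the background setting and a genome build are not stated in the labels. Array medians ran from 3.69 to 3.73, arrays of 1 group correlated with r = 0.997 to 0.998, and 0 pairs were identical.

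Of the probe sets, 14841 are paired with 1 symbol, 0 with several and 20037 with none, and symbols were updated through RefSeq. Groups and replicate numbers come from the sample titles. limma 3.58.1 in R 4.3.3 (lmFit, eBayes) fitted 5 group means over 15 arrays, with 10 residual and 3.81 prior degrees of freedom, for 10 two-sided contrasts and 1 moderated F test across the groups. Benjamini-Hochberg adjustment ran within each contrast at a threshold of 0.05, and intervals are 95% intervals of that fit. On simulated data, the DEX against vehicle contrast over 14841 probe sets recovered 56% of changes of 0.3, 88% of 0.6, 98% of 1 and 100% of 1.5, and 6.56% of calls were false.

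The 7 genes and the lists were chosen with earlier results of these data known. Other genes were named by a rule: up to 4 called genes per list with the smallest F test p, the partners ALOX5, MAOB, TFCP2 and CRISPLD1, and the 3 genes most alike. SGK1 and ANGPTL4 were named after their values were seen. The alternatives tried were quantile normalization, a filter on dim probe sets, all probe sets, a replicate block, limma-trend, fits of the 6 arrays of both groups, adjustment over all 10 contrasts and leaving out each array.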

Additional observations from a re-analysis of the deposited data

How the results depend on the processing

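Of the 70 differences between groups for the 7 genes, each recomputed under 7 alternatives, 16 of 490 values changed their call and 0 reversed. Quantile normalization, the filter on dim probe sets and limma-trend changed the call of none of these 70 differences, while the F test called 6 of the 7 genes with the filter on dim probe sets, against 5. Genes called of the 7 with DHT against vehicle numbered 2 with adjustment over all 10 contrasts and 0 on the 6 arrays of both groups alone, against 1. On the 6 arrays alone they numbered 0 with DEX against vehicle, against 2, and 3 with DEX against PROG, against 5. With MPA against PROG they numbered 0 over all probe sets and 0 on the 6 arrays alone, against 2. The 6-array fits hold fewer arrays, and what else lies behind the changes was not tested.

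No pairing by replicate number was seen: deviations of same-numbered arrays correlated with r of -0.05 to 0.07 over 30 pairs. Arrays with different numbers gave -0.09 to 0.07 over 60 pairs. Such values cannot tell whether same-numbered arrays were handled together. With the replicate number as a block, the genes called with MPA against PROG numbered 1, against 2 (TFCP2L1, adjusted p = 0.0938), and CRISPLD2 was no longer called with PROG against vehicle (adjusted p = 0.0653). All named probe sets called with MPA against vehicle numbered 829 with that block, against 880.

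Leaving out in turn each array of the groups compared, 30 of 36 called differences were kept and 6 were lost without at least 1 array. Arrays of the other groups, which share the estimate of the spread, were not left out for these differences. The genes called numbered 5 in every such fit with MPA against vehicle and DEX against MPA, 4 to 5 with PROG against vehicle and DEX against PROG, 1 to 2 with DHT against vehicle and DEX against DHT, 2 with DEX against vehicle, 0 to 1 with MPA against PROG, 5 to 6 with MPA against DHT and in the F test, and 3 to 4 with PROG against DHT.

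Counts over all named probe sets moved more. On the 6 arrays of both groups alone they were 526 (MPA), 255 (PROG), 54 (DHT) and 44 (DEX) against vehicle, where the fit over 15 arrays called 880, 419, 132 and 164. Between compounds they were 285 for DEX against MPA (602 over 15 arrays), 122 for DEX against PROG (211), 39 for DEX against DHT (97), 7 for MPA against PROG (43), 292 for MPA against DHT (521) and 146 for PROG against DHT (254). With limma-trend the counts were 220 for DHT against vehicle, 166 for DEX against DHT and 71 for MPA against PROG, and with adjustment over all 10 contrasts 206, 169 and 114. Leaving out 1 array of the groups compared gave 674 to 855 (MPA), 257 to 336 (PROG), 66 to 132 (DHT) and 78 to 123 (DEX) against vehicle. Between compounds it gave 422 to 539 for DEX against MPA, 144 to 169 for DEX against PROG, 62 to 135 for DEX against DHT, 17 to 38 for MPA against PROG, 380 to 459 for MPA against DHT and 168 to 256 for PROG against DHT. Moves of over 1.5 times came without vehicle 1 (87), vehicle 2 (104), vehicle 3 (99), DEX 2 (95) or DEX 3 (78) for DEX against vehicle, vehicle 2 (79), DHT 1 (79) or DHT 2 (66) for DHT against vehicle, and PROG 2 (257) for PROG against vehicle. Between compounds they came without DHT 1 (62) or DHT 2 (64) for DEX against DHT, MPA 3 (22), PROG 1 (17) or PROG 3 (19) for MPA against PROG, and PROG 2 (168) or DHT 1 (168) for PROG against DHT. The levels of MAOA in all groups, and of ALOX5AP with DHT, DEX and vehicle, lie near or below the array medians, which limits how small a change could be seen.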
